A study of Mus musculus with 9 samples.

Results

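Liver RNA of ligated mice given ligustilide was compared with liver RNA of ligated mice without it. The comparison uses 6 of the 9 libraries of the series, 3 from mice with bile duct ligation alone (BDL) and 3 from mice with ligation and ligustilide (BDL+LIG), chosen by their sample titles. It describes 9951 of the 21470 genes in the deposited table, namely those with at least 1 FPKM in at least 3 of the 6 libraries. FPKM is the number of sequenced fragments of a gene scaled to its transcript length and to the depth of the library. Both groups carry the ligation, so the contrast concerns ligustilide on top of it. The other 3 libraries came from sham-operated mice. They appear below as levels only, because the BDL libraries would also be the control for a comparison with sham. The design text gives a dose of 10 mg/kg, whereas the titles of the treated samples carry the number 20. The sources used here give no strain, sex, age, route or duration of treatment. Nothing in the labels ties a library to a separate mouse, so the spread behind the p-values is that between these libraries and may be technical.

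Ligation of the common bile duct blocks the outflow of bile. Bile acids then build up in the liver, duct-like cells multiply, macrophages and neutrophils enter, and stellate cells turn into myofibroblasts that lay down collagen. Hepatocytes answer the inflammation with acute phase proteins, which interleukin-6 switches on through its receptor and STAT3, and load the endoplasmic reticulum with protein to fold. Ligustilide is a phthalide found in the essential oil of Angelica and Ligusticum species.

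The 6 libraries held 32248669 to 37381734 fragments, recovered from the steps of the FPKM values. Across genes, Pearson correlations ran from 0.993 to 0.996 among the BDL libraries, from 0.983 to 0.987 among the BDL+LIG libraries and from 0.975 to 0.981 between the groups. The median SD of a gene on the log2 scale was 0.097 in BDL and 0.146 in BDL+LIG. The tissue label fits its defining transcript: Alb, the gene of serum albumin, stood at 20338, 17927 and 16179 FPKM in BDL and 22032, 30170.5 and 27979 in BDL+LIG. Differences are BDL+LIG minus BDL on the log2(FPKM + 1) scale ± SE, tested with limma and adjusted by Benjamini and Hochberg over all 9951 genes, with 0.05 as the threshold. This scale understates the change of genes near 1 FPKM. "Rose", "fell" and "passed" are used only of genes past that threshold.

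In limma, 3434 genes passed (34.5% of those tested). Of these, 2825 (28.4%) were higher and 609 (6.12%) lower in BDL+LIG. The median difference over all genes was 0.18, and 90% of genes lay between -0.40 and 0.71. A difference of at least 1 was reached by 134 of the genes that passed, 96 of them higher and 38 lower. The levels of the 3 libraries of each group did not overlap for 51.6% of genes, 4086 of them higher (41.1% of all) and 1053 lower (10.6%). The counts rested strongly on single BDL libraries. Without BDL 2, 1302 genes were higher and 211 lower. Without BDL 1, 1509 were higher and 337 lower, and without BDL 3 the lower genes numbered 316.

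Direction followed transcript length. When the tested genes were put in deciles of the length implied by their FPKM steps, the median difference climbed from -0.21 in the shortest decile, where the median GENCODE transcript measures 1 kb, to 0.36 in the longest decile, at 6.99 kb. In the shortest decile 3.22% of genes rose and 26.1% fell. In the longest decile 55.5% rose and 0.905% fell. All 3 BDL+LIG libraries had this slope, with longest minus shortest spans of 0.69, 0.54 and 0.46. Among the BDL libraries, each set against the mean of the other 2, medians moved from -0.02 to -0.10 in BDL 1, from 0.01 to 0.02 in BDL 2 and from 0.02 to 0.08 in BDL 3. Slopes were also present within the treated group. Set likewise, medians moved from -0.20 to -0.02 in BDL+LIG 1, from 0.12 to 0.10 in BDL+LIG 2 and from 0.06 to -0.09 in BDL+LIG 3. Whether the slope comes from the animals or from RNA quality and library preparation was not tested.

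**Figure D1:**
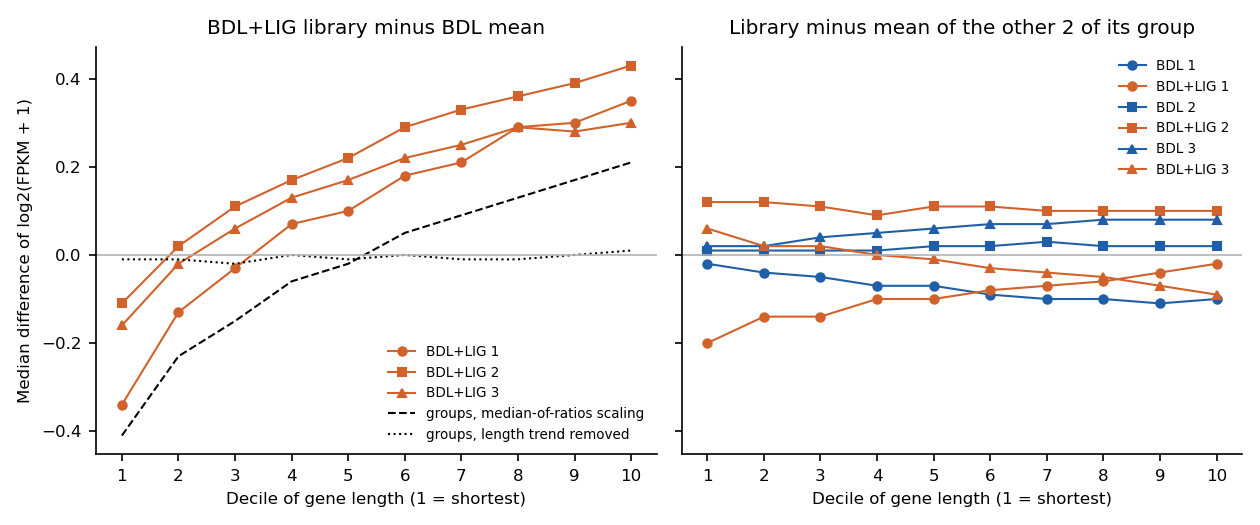
Median difference of log2(FPKM + 1) over the genes of each decile of gene length, with each BDL+LIG library set against the BDL mean (left) and each library set against the mean of the other 2 of its group (right). The 3 orange curves on the left climb from values between -0.34 and -0.11 to values between 0.30 and 0.43. The dashed line, after median-of-ratios scaling, keeps the slope, and the dotted line, after removal of the length trend, is flat by construction.

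Each result is therefore also given after the trend in length was removed from every library by a local regression. These values are called length-adjusted. On this scale 1657 of 9948 genes passed in limma (16.7%), with 763 higher (7.67%), 894 lower (8.99%) and a median of -0.01. Of the genes that had passed on the deposited values, 725 remained higher, 376 remained lower and 0 passed in the opposite direction. These counts were smaller still without a BDL library, at 536 without BDL 1, 131 without BDL 2 and 461 without BDL 3. Median-of-ratios scaling kept the length slope but moved the median of all genes from 0.18 to 0.01, with 1449 genes higher (14.6%) and 1607 lower (16.1%; 30.7% together). Rescaling to TPM moved it to 0.33, with 4481 higher and 333 lower.

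Changes were ranked by size among genes that passed, did not overlap and averaged 5 FPKM or more in BDL or BDL+LIG, without clones and predicted genes. The largest rise was that of Acot3 and the largest fall that of Mup17. Acot3, a peroxisomal acyl-CoA thioesterase, stood at 0.899, 0.98 and 1.11 FPKM in BDL and at 14.2, 5.63 and 5.78 in BDL+LIG. Txnip, which binds thioredoxin and restrains glucose uptake, stood at 9.8, 11.5 and 12.1 FPKM in BDL and at 31.2, 46.2 and 49.3 in BDL+LIG. Eif4ebp2, a repressor of cap-dependent translation, stood at 12.3, 12 and 12.3 and 49.6, 45.5 and 38.2 FPKM. In all 3 genes every BDL+LIG library lay above every BDL library, and Txnip in sham, at 21.7, 16.3 and 28.5 FPKM, lay between the groups. The differences were 2.14 ± 0.29 for Acot3, 1.81 ± 0.17 for Txnip and 1.78 ± 0.11 for Eif4ebp2 (limma, adjusted p = 0.00368, 0.00209 and 0.00151). Length-adjusted they were 1.92, 1.65 and 1.73, and all 3 passed. Acot3 shares long stretches of sequence with its neighbouring Acot genes, so the assignment of fragments among them is uncertain.

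The other 9 of the 12 largest rises were those of Rgs16 (1.71), a regulator of G protein signalling, Slc10a5 (1.67), Scd1 (1.65), the stearoyl-CoA desaturase of fat synthesis, Ddi2 (1.61), Il6ra (1.59), Apom (1.57), the apolipoprotein that carries sphingosine 1-phosphate, Gna12 (1.54), Aqp1 (1.54) and Colec11 (1.41). Their adjusted p in limma lay between 0.00151 and 0.0147. Scd1 varied most among them, at 566, 377 and 236 FPKM in BDL and 795, 1942 and 1011 in BDL+LIG. It did not pass length-adjusted (1.35, adjusted p = 0.0526) or without BDL 2 (adjusted p = 0.051).

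The 12 largest falls were led by Mup17 (-2.49 ± 0.37), Mup14 (-2.35 ± 0.40), Saa2 (-2.32 ± 0.53) and Mup3 (-2.14 ± 0.29). They went on with Mup11 (-1.96), Saa1 (-1.90), Ptgds (-1.71), the lipocalin-type prostaglandin D synthase, Saa3 (-1.66), the mitochondrial ATP6 (-1.62), Lcn2 (-1.44), Apcs (-1.43) and Orm3 (-1.42). Ptgds stood at 20.7, 17.2 and 16.4 FPKM in BDL, at 3.26, 5.25 and 6.39 in BDL+LIG and at 0.712, 0.152 and 0.463 in sham, so that the treated libraries lay between the other groups. After length adjustment, Lcn2 (adjusted p = 0.0695) and Orm3 (adjusted p = 0.0539) did not pass in limma and the other 10 did. Of the rises with the smallest p on that scale, Gna12 (1.48), Mxd4 (1.20), Zfp36l2 (1.08), Eif4ebp2 and Fitm2 (1.27), Mxd4 opposes Myc, Zfp36l2 speeds the decay of AU-rich mRNAs and Fitm2 helps to form lipid droplets. The 5 falls with the smallest p were those of Cyp4a12a (-1.49), Rpl21 (-0.86), Pdia3 (-0.80), the protease Prtn3 (-1.12) and the dynein light chain Dynll1 (-0.75).

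**Figure D2:**
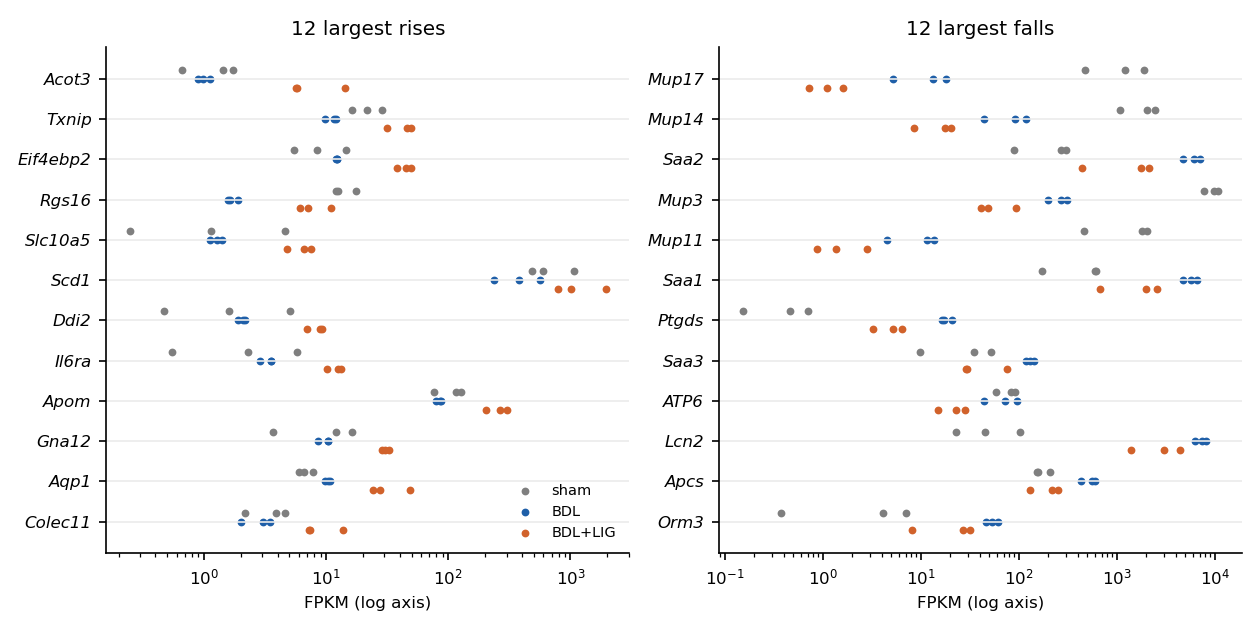
FPKM of the 12 largest rises (left) and the 12 largest falls (right) on a log axis, with 1 point per library and the 3 groups in separate colours. BDL+LIG points lie to the right of all BDL points on the left panel and to the left of them on the right panel, because non-overlap was a condition of the choice. The major urinary protein genes have sham points far above both ligated groups, while sham points of Saa1, Saa2 and Lcn2 lie below them.

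Acute phase proteins were lower as a group. These are plasma proteins that hepatocytes release in inflammation, among them the serum amyloids, orosomucoids, haptoglobin and fibrinogen. In limma, 13 of 31 tested members fell (41.9% against 6.12% of all genes), 0 rose and 18 did not pass. Their median difference was -0.63 against 0.18 over all genes. Of the 31, 20 had non-overlapping lower levels in BDL+LIG, as had 10.6% of all genes. Length-adjusted, 10 fell (32.3% against 8.99% of all genes) and 0 rose, with a median of -0.74 against -0.01. The number that fell ranged from 6 to 19 with 1 library left out, fewest without BDL 2, and was 0 to 16 on the length-adjusted scale.

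Saa2, a serum amyloid that rides on high-density lipoprotein, stood at 4716, 6187 and 7101 FPKM in BDL, at 2109.7, 444 and 1768 in BDL+LIG and at 88.4, 271 and 303 in sham. Saa1 stood at 4729, 5781 and 6590.3 FPKM in BDL and 2589, 671 and 1969.8 in BDL+LIG. BDL+LIG library 2 was the lowest of the treated libraries for both. No treated library reached the BDL range, which was a condition of their choice among the largest falls. The difference of Saa2 was -2.32 ± 0.53, adjusted p = 0.0136, and that of Saa1 was -1.90 ± 0.44, adjusted p = 0.0147 (limma). Without BDL 2 the adjusted p was 0.0505 for Saa2 and 0.0528 for Saa1. Saa3, which macrophages make too, stood at 118, 131 and 142 FPKM in BDL and 29.8, 29.2 and 75.3 in BDL+LIG (-1.66 ± 0.32, adjusted p = 0.00846).

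Apcs, the gene of serum amyloid P, a major acute phase protein of mice, fell to 37.9% of the BDL mean, from 427, 554 and 593 to 251, 131 and 216 FPKM (-1.43 ± 0.24, adjusted p = 0.00561, limma). Orm1 (-1.42), Orm2 (-1.40), Saa4 (-1.29) and Fgl1 (-1.22), a liver-secreted ligand of the T cell receptor LAG3, fell as well, and all 4 also passed length-adjusted. Lcn2, lipocalin-2, which binds bacterial siderophores, stood at 6245, 7334 and 8151 FPKM in BDL and 3068, 1386 and 4386 in BDL+LIG and at 22.8, 104 and 45.4 in sham. Its difference of -1.44 (adjusted p = 0.0211) did not pass when any 1 of the BDL libraries was left out (adjusted p = 0.0567 to 0.0689). The same held for Orm3 (adjusted p = 0.0841 to 0.096). Lrg1 fell by 0.79, with an adjusted p of 0.0517 without BDL 2.

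Other acute phase genes, chosen after their values were seen, show how uneven the group was. Hp, haptoglobin, fell (-0.89 ± 0.20, adjusted p = 0.0133), although not without BDL 2 (adjusted p = 0.0574). The fibrinogen chains Fga (-0.66), Fgb (-0.50) and Fgg (-0.63) did not pass, with adjusted p of 0.0926, 0.105 and 0.0551. Fgb alone among them changed sign under 1 scaling, to 0.123 with quantile normalization. The metallothioneins Mt1 (-1.02, adjusted p = 0.125) and Mt2 (-1.07, adjusted p = 0.0945) did not pass either. The Saa and Orm genes have near-identical copies, so values of single members are uncertain.

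Upstream of this response, the interleukin-6 receptor chains moved the other way. Il6ra, the chain that binds the cytokine, stood at 3.51, 2.85 and 3.53 FPKM in BDL and at 13.3, 10.2 and 12.5 in BDL+LIG (1.59 ± 0.12, adjusted p = 0.00156, limma; length-adjusted 1.38). Its sham values spread widely, at 5.81, 2.31 and 0.543 FPKM. Il6st, the signalling chain gp130, rose by 1.12 (adjusted p = 0.00236; length-adjusted 0.80). Il1r1, the receptor of interleukin-1, chosen after its values were seen, fell (-0.65 ± 0.13, adjusted p = 0.00959). Il6 itself was too low to test, at 0, 0.172 and 0.252 FPKM in BDL and 0, 0.0222 and 0.0884 in BDL+LIG, and so was Tnf, at 1.22, 0.833 and 0.816 and 0.408, 1.23 and 0.778 FPKM. Il1b (-0.16, adjusted p = 0.534) and the monocyte chemokine gene Ccl2 (0.13, adjusted p = 0.592) did not pass. Ccl2 lies below 0 after median-of-ratios scaling.

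Many genes of protein folding in the endoplasmic reticulum fell. The chaperones Hspa5 (BiP), Hsp90b1 and Calr and the disulfide isomerases fold secreted proteins, and cells raise them in the unfolded protein response through the factors ATF6 and XBP1, which bind the ER stress response element in their promoters. In limma, 15 of 47 tested genes of the unfolded protein and integrated stress responses fell (31.9% against 6.12% of all genes), 9 rose (19.1% against 28.4%) and 23 did not pass, with a median of -0.15. Length-adjusted, 16 fell (34% against 8.99% of all genes) and 4 rose (8.51% against 7.67%). With 1 library left out, 10 to 18 fell on the deposited scale and 6 to 18 length-adjusted. The fewest on the deposited scale came without BDL 2.

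Calr, calreticulin, a calcium-binding chaperone of glycoproteins, stood at 716, 699.7 and 701 FPKM in BDL, at 444, 355 and 411 in BDL+LIG and at 418, 448 and 529.8 in sham. Pdia3, the disulfide isomerase that works with it, stood at 186, 199.9 and 214 FPKM in BDL and 119, 131 and 131 in BDL+LIG. Hspa5, chosen after its values were seen, stood at 240.3, 271 and 299 FPKM in BDL and 143, 173 and 192 in BDL+LIG. None of the 3 overlapped between the groups, and the treated range of each overlapped with its sham range, which for Pdia3 was 159, 130.2 and 134 FPKM and for Hspa5 206, 183 and 131. The differences were -0.81 ± 0.10, adjusted p = 0.00319 for Calr, -0.65 ± 0.09, adjusted p = 0.0037 for Pdia3 and -0.68 ± 0.13, adjusted p = 0.00825 for Hspa5 (limma), and length adjustment made each fall larger, at -0.88, -0.80 and -0.82.

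Sdf2l1 (-0.87), a partner of BiP, and Derl3 (-0.85), part of the channel that returns misfolded proteins to the cytosol, also fell by the rule. Derl3 did not pass without BDL 1 (adjusted p = 0.0836) or BDL 3 (adjusted p = 0.0767). Chosen after their values were seen, Manf (-1.06), a secreted survival factor of ER stress, Hsp90b1 (-0.61), Creld2 (-0.78), Xbp1 (-0.51) and Pdia6 (-0.39) fell too. Pdia6 did not pass when any BDL library was left out (adjusted p = 0.0551 to 0.0725), while Creld2 (adjusted p = 0.0581) and Xbp1 (adjusted p = 0.059) did not pass without BDL 2. Against these, Atf6, the transcription factor itself, rose (0.67 ± 0.09, adjusted p = 0.00319; length-adjusted 0.32), and so did Sesn2 (0.80 ± 0.12, adjusted p = 0.00482), a stress-induced inhibitor of mTORC1. Of the PERK branch, Ddit3 (-0.35, adjusted p = 0.142) and Atf4 (-0.15, adjusted p = 0.24), chosen after their values were seen, did not pass.

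The promoters of these genes were searched for the ER stress response element, CCAAT and CCACG with 9 bases of any kind between them, on both strands of the 250 bases before the RefSeq start site, in the build GRCm38.p6, which is earlier than that of the FPKM table. It was found in 37 of 32851 promoters (0.113%) and in 15 of the 8024 tested genes with a promoter (0.187%). Among list members with a promoter it was found in 6 of 13 that fell, 0 of 8 that rose and 3 of 23 that did not pass. The list was drawn up from known targets of this element's factors, so its presence there is no independent result. Outside the list, 1 tested gene with a match fell (Acnat2, chosen after its values were seen, -0.71, adjusted p = 0.00514) and 1 rose (Acacb, chosen likewise, 0.95, adjusted p = 0.0216, but not when any BDL library was left out). The promoters of 4 members that fell are printed, each on the strand of its gene and in the direction of transcription. The CCAAT and CCACG ends of each match, or their reverse complements, are in capitals. These promoters lie at chr2:34771840-34772089 (+) for Hspa5, chr10:86705445-86705694 (-) for Hsp90b1, chr15:88819396-88819645 (+) for Creld2 and chr12:17266339-17266588 (+) for Pdia6. Hsp90b1 holds 2 matches and each of the others 1.
Hspa5: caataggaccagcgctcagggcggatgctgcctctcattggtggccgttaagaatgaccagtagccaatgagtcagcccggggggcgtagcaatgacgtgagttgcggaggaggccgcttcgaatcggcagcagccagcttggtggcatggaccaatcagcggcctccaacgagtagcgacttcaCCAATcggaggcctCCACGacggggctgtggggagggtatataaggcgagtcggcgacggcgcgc
Hsp90b1: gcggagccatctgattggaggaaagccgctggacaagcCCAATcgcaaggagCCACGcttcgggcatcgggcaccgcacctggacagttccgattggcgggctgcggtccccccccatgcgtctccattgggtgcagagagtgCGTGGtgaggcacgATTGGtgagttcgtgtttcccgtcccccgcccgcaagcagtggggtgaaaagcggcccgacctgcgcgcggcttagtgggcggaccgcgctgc
Creld2: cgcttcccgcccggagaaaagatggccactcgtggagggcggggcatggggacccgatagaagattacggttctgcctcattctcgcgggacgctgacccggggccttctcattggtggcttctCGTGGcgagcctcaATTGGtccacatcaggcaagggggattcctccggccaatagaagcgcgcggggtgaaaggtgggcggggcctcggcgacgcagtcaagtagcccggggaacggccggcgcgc
Pdia6: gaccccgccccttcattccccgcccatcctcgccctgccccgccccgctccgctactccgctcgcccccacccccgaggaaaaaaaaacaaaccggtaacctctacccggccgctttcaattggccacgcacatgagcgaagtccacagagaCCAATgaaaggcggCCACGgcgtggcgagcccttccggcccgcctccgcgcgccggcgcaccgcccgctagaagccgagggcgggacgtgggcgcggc

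**Figure D3:**
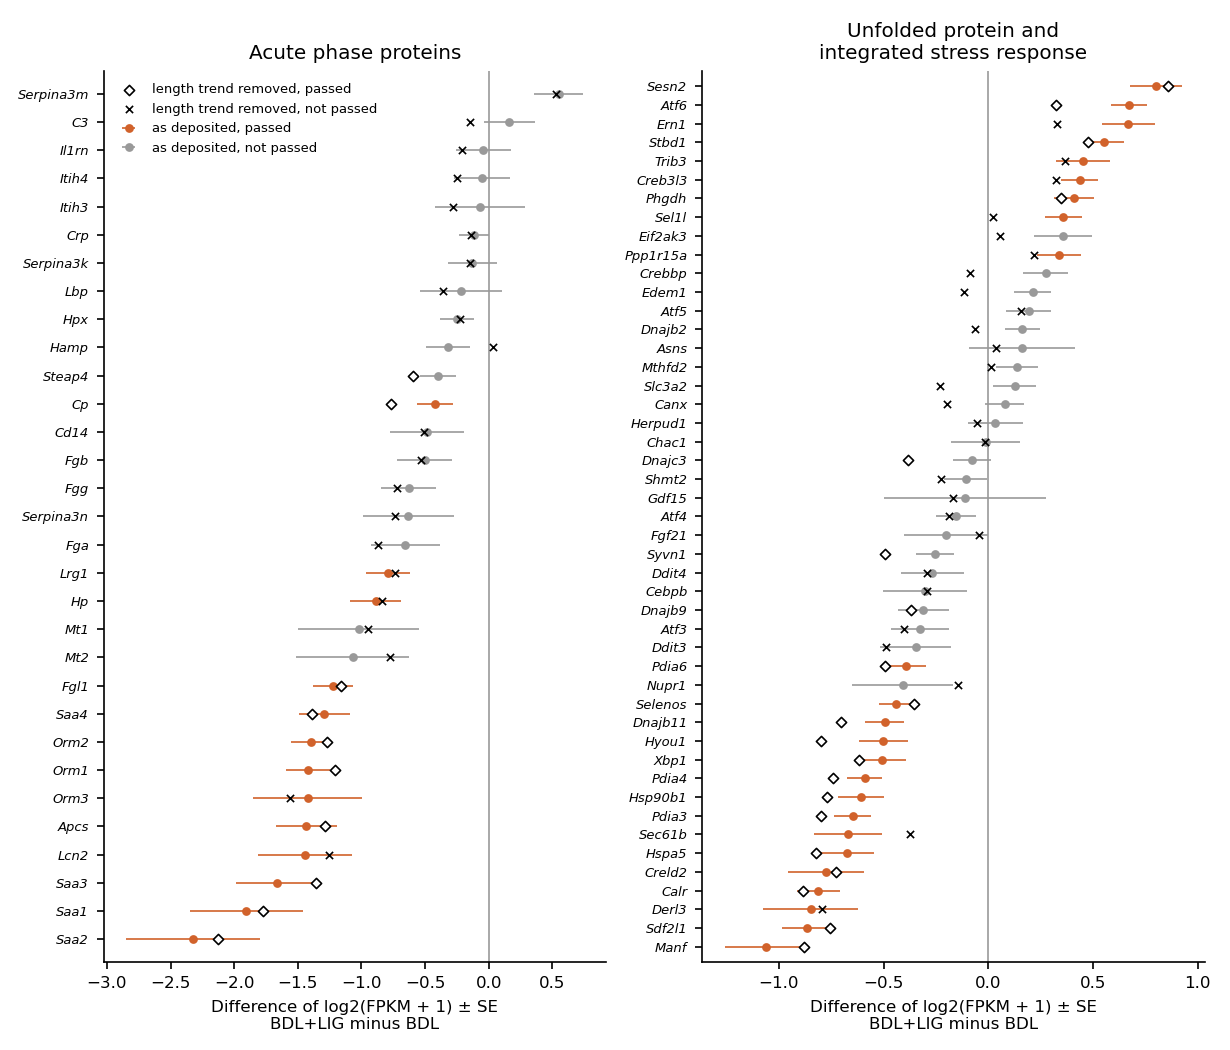
Difference of log2(FPKM + 1), BDL+LIG minus BDL, for each tested acute phase gene (left) and each tested gene of the unfolded protein and integrated stress responses (right), as circles with SE on the deposited scale and as diamonds or crosses after length adjustment. Saa2, Saa1 and Saa3 lie furthest to the left, and on the right panel Hspa5, Hsp90b1, Calr and Pdia3 lie below 0 on both scales while Atf6 and Sesn2 lie above it.

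Endothelial transcripts were higher in BDL+LIG. Of 36 tested endothelial genes, 32 rose in limma (88.9% against 28.4% of all genes) and 0 fell, with a median of 0.79 against 0.18. The remaining 17 of 53 were too low to test. Length-adjusted, 23 rose (63.9% against 7.67%) and 0 fell, with a median of 0.59 against -0.01. The count was 23 to 33 with 1 library left out on the deposited scale, but 0 to 24 length-adjusted. The summed level of all 53 genes was 142, 144 and 141 FPKM in BDL, 258, 389 and 265 in BDL+LIG and 122, 102 and 118 in sham. In whole tissue, more endothelial cells and more RNA per endothelial cell cannot be told apart, and this holds for the other cell types below.

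Cdh5, VE-cadherin, the adhesion protein of endothelial junctions, stood at 5.07, 5.54 and 4.54 FPKM in BDL, at 9.2, 14.2 and 12.4 in BDL+LIG and at 2.27, 1.93 and 2.87 in sham (1.08 ± 0.15, adjusted p = 0.00377, limma). Pecam1 stood at 2.83, 2.38 and 2.93 FPKM in BDL and 5.11, 6.66 and 5.46 in BDL+LIG (0.86 ± 0.12, adjusted p = 0.00372). Stab2, the hyaluronan scavenger receptor of sinusoidal endothelium, stood at 1.56, 2.19 and 2.05 FPKM in BDL, 4.68, 5.07 and 3.98 in BDL+LIG and 2.44, 1.23 and 1.71 in sham (0.93 ± 0.12, adjusted p = 0.0035). The groups did not overlap in any of the 3, and length-adjusted differences were 0.82, 0.64 and 0.57, all of which passed. Aqp1, a water channel of sinusoids and bile ducts, rose most, from 10.3, 10.7 and 9.85 to 27.6, 48.2 and 24.2 FPKM (1.54 ± 0.22, adjusted p = 0.00402). Maf, a transcription factor of sinusoidal endothelium, rose by 0.79. Chosen after their values were seen, Eng (1.20), a co-receptor of TGF-beta and BMP9, and Kdr (0.97), the main receptor of VEGF, rose as well, both also length-adjusted.

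Part of the matrix genes rose under ligustilide. Of 30 tested collagen and fibrillar matrix genes, 18 rose in limma (60% against 28.4% of all genes) and 0 fell, with a median of 0.59 against 0.18. Length-adjusted, 6 rose (20% against 7.67%) and 0 fell, with a median of 0.29. The number that rose was 9 to 24 with 1 library left out (fewest without BDL 1) and 0 to 9 length-adjusted. The 4 members with the smallest p were Col14a1 (1.10), a collagen that binds fibrils, Bgn (1.05), the proteoglycan biglycan, Nid1 (0.67) and Col4a1 (0.68), both of basement membranes. All 4 also passed length-adjusted, at 0.76, 0.91, 0.34 and 0.34, as did Dcn (0.90) and Lum (0.71), proteoglycans chosen after their values were seen. Lum did not pass on the deposited scale without BDL 2 (adjusted p = 0.0526).

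The fibril-forming collagens of scar did not pass. Col1a1 stood at 9.68, 11.6 and 13.5 FPKM in BDL, at 11.3, 22.8 and 15.4 in BDL+LIG and at 2.42, 0.31 and 0.986 in sham. The groups overlapped, and the difference was 0.43 ± 0.23, adjusted p = 0.167 (limma). Col1a2 (0.47 ± 0.26, adjusted p = 0.181) and Col3a1 (0.60 ± 0.30, adjusted p = 0.15) gave like values. Their length-adjusted differences were 0.11, 0.16 and 0.28. BDL+LIG 2 was the highest treated library for Col1a1.

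**Figure D4:**
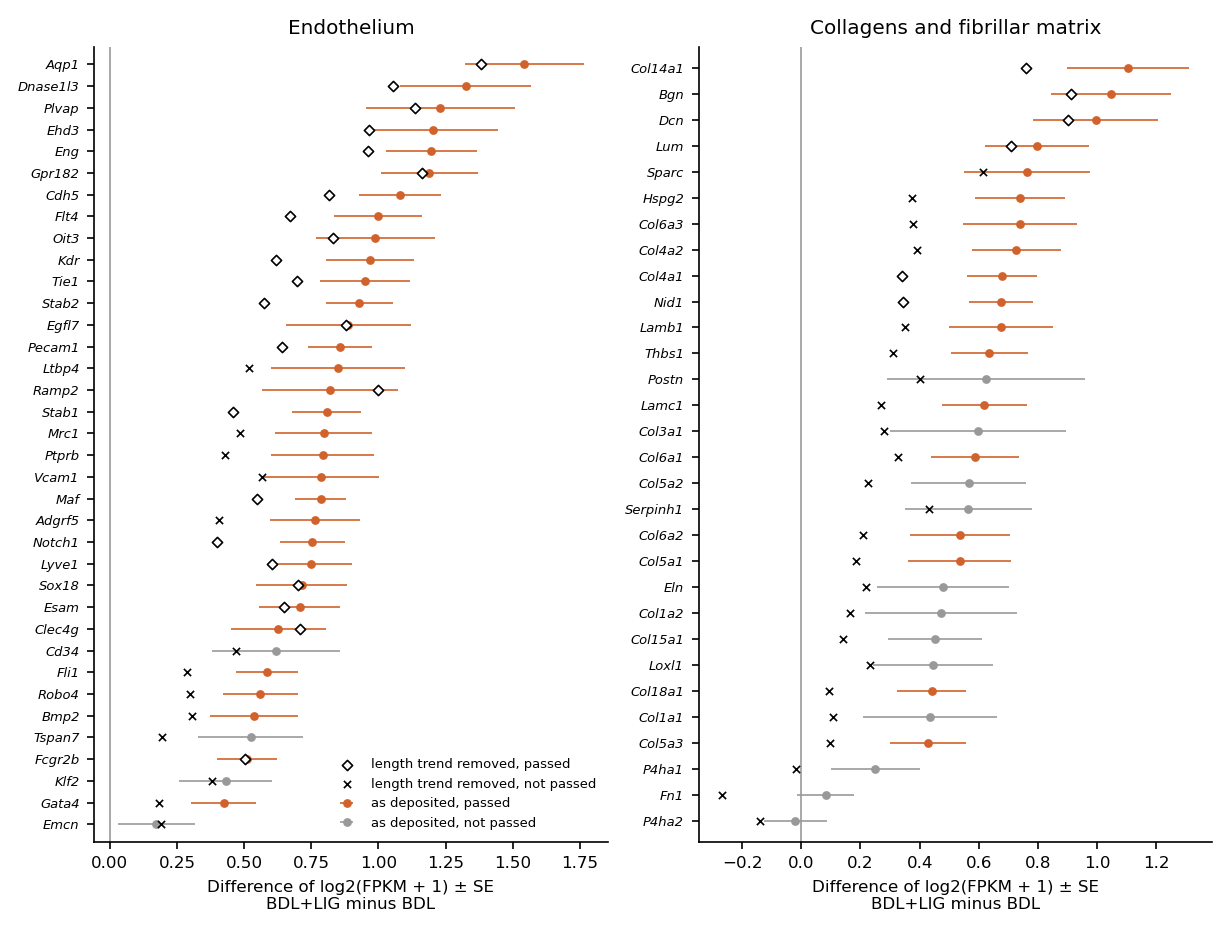
Difference of log2(FPKM + 1), BDL+LIG minus BDL, for each tested endothelial gene (left) and each tested collagen or matrix gene (right), as circles with SE on the deposited scale and as diamonds or crosses after length adjustment. All 36 endothelial genes lie above 0 on both scales, whereas the fibrillar collagens Col1a1, Col1a2 and Col3a1 lie above 0 without passing.

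Markers of the cells that make this matrix rose in part. Among 22 tested genes of stellate cells and myofibroblasts, 11 rose (50% against 28.4% of all genes) and 0 fell in limma, with a median of 0.48. Length-adjusted, 4 rose (18.2% against 7.67%; median 0.38). The number that rose was 7 to 13 with 1 library left out, and 0 to 6 length-adjusted. The 4 members with the smallest p mark stellate cells rather than contractile myofibroblasts. Colec11, a collectin, stood at 3.48, 3.04 and 1.99 FPKM in BDL and 7.27, 13.7 and 7.37 in BDL+LIG (1.41 ± 0.24, adjusted p = 0.00625). Ecm1 (1.13), which restrains latent TGF-beta, Reln (1.11) and Cygb (0.93) rose also length-adjusted. Acta2, the smooth muscle actin of myofibroblasts, stood at 1.94, 3.72 and 4.43 FPKM in BDL and 3.19, 4.36 and 2 in BDL+LIG (-0.05 ± 0.27, adjusted p = 0.892), and its sign changed under rescaling. Its sham libraries, at 3.99, 1.57 and 0.495 FPKM, overlapped with both.

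Genes of the TGF-beta pathway, the main profibrotic signal, rose in 21 of 30 cases (70% against 28.4% of all genes) and fell in 0 (limma, median 0.50). Length-adjusted, 6 rose (20% against 7.67%) and 0 fell (median 0.20). With 1 library left out the counts were 13 to 20 and, length-adjusted, 2 to 6, with the fewest on the deposited scale without BDL 2. Among ligands, Tgfb1 stood at 6.52, 8.15 and 7.67 FPKM in BDL, at 10.7, 18.4 and 17.9 in BDL+LIG and at 2.43, 2.49 and 4.09 in sham. Every treated library lay above every BDL library (0.95 ± 0.20, adjusted p = 0.00987; length-adjusted 0.84, adjusted p = 0.0167). Among receptors, Tgfbr2 rose by 0.80 (adjusted p = 0.0035). The inhibitory Smads rose too, Smad6 by 0.96 and Smad7 by 1.00 (adjusted p = 0.00229 and 0.0029), and so did the secreted target Tgfbi (1.10). These 4 also passed length-adjusted. Ccn2, connective tissue growth factor, chosen after its values were seen, rose (0.62 ± 0.16, adjusted p = 0.0224) but not length-adjusted (adjusted p = 0.0741) and not without BDL 1, BDL 2 or BDL+LIG 1 (adjusted p = 0.0504 to 0.079).

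Among 21 tested matrix proteases and their inhibitors, 11 rose (52.4% against 28.4% of all genes) and 0 fell (limma, median 0.50), and 3 rose length-adjusted (14.3% against 7.67%). They were led by Plat (0.62), tissue plasminogen activator, Plaur (0.60), the urokinase receptor, Adam9 (0.62) and Adamts1 (0.78). Of these 4, Adamts1 did not pass length-adjusted (adjusted p = 0.051). Timp1, the protease inhibitor that is a common marker of fibrosis, did not pass (-0.09 ± 0.27, adjusted p = 0.808). It stood at 8.15, 8.09 and 10.4 FPKM in BDL, 4.94, 8.89 and 12.4 in BDL+LIG and 0.155, 0.127 and 0.161 in sham, and its length-adjusted difference was 0.08. With 1 library left out, 4 to 12 of the list rose, fewest without BDL 1.

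Bile duct markers did not move in 1 direction. Of 26 tested genes of cholangiocytes and the ductular reaction, 7 rose (26.9% against 28.4% of all genes) and 3 fell (11.5% against 6.12%) in limma, with a median of 0.23. Length-adjusted, 3 rose (11.5% against 7.67%) and 4 fell (15.4% against 8.99%; median 0.10). Krt7 stood at 7.06, 10.4 and 11.4 FPKM in BDL and 10.3, 9.27 and 8.01 in BDL+LIG (-0.04 ± 0.17, adjusted p = 0.864), and Krt19 at 9.64, 15.2 and 17.2 and 17.7, 17.8 and 10.7 (0.13 ± 0.24, adjusted p = 0.693). Both keratins mark ducts, both overlapped between the groups and both changed sign under some scalings. Sham levels were far lower, at 0.659, 0.908 and 0.235 for Krt7 and 2.45, 1.52 and 1.03 for Krt19. Spp1, osteopontin, stood at 378, 479.7 and 557 FPKM in BDL and 168, 410.4 and 362 in BDL+LIG (-0.67 ± 0.32, adjusted p = 0.132).

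By contrast, the keratins that hepatocytes share with ducts fell. Krt18 stood at 856, 832 and 848 FPKM in BDL and 462, 439 and 572 in BDL+LIG, with no overlap (-0.79 ± 0.12, adjusted p = 0.00418). Its partner Krt8, chosen after its values were seen, fell by 0.56 (adjusted p = 0.013; adjusted p = 0.0512 without BDL 1 and 0.0563 without BDL 2). Elf3, an epithelial transcription factor chosen likewise, fell (-0.73 ± 0.15, adjusted p = 0.00923). All 3 also fell length-adjusted. Aqp1, Onecut1 (0.86), a factor of biliary and hepatocyte fate, and the bicarbonate exchanger Slc4a2 (0.75) rose on both scales.

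Kupffer cell genes, which mark the resident macrophages of the liver, rose in 6 of 20 cases (30%, near the 28.4% of all genes) and fell in 0 (limma, median 0.43). Length-adjusted, 4 rose (20% against 7.67%; median 0.35). The endothelial list holds 1 of these genes too, Cdh5. With 1 library left out 3 to 12 rose. Adgre1, the macrophage receptor F4/80, stood at 3.53, 4.86 and 6.18 FPKM in BDL, at 10.3, 13.2 and 21.2 in BDL+LIG and at 1.13, 2.37 and 2.42 in sham (1.41 ± 0.26, adjusted p = 0.00699). BDL+LIG 3 was highest. Cd5l, a macrophage protein that blocks apoptosis, rose (1.00 ± 0.26, adjusted p = 0.0211), but not without BDL 1 (adjusted p = 0.0836) or BDL 2 (adjusted p = 0.0657). The defining markers Clec4f (0.49 ± 0.18, adjusted p = 0.0711) and Timd4 (0.50 ± 0.25, adjusted p = 0.146), chosen after their values were seen, did not pass.

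Genes of recruited monocytes and macrophages mostly did not pass, with 3 of 31 higher (9.68% against 28.4% of all genes) and 0 lower (limma, median 0.18). Length-adjusted, 0 were higher. Cd68 stood at 35.1, 38.3 and 40.4 FPKM in BDL and 34.6, 48.7 and 65.7 in BDL+LIG (0.34 ± 0.20, adjusted p = 0.222). The count moved with single libraries, from 0 to 13, fewest without BDL 1. Of 19 neutrophil genes 5 could be tested, and 2 of them fell (40% against 6.12% of all genes). They were S100a9 (-1.11, not in 4 of 6 leave-one-out fits, adjusted p = 0.0608 to 0.0888) and Lrg1, which the acute phase list holds too. Length-adjusted 0 fell. Of the T and natural killer cell genes 4 of 28 could be tested, and of the B and plasma cell genes 3 of 21. Of the 3 B and plasma cell genes, 2 rose and 1 fell. Jchain, the joining chain of plasma cell antibodies, rose (1.14 ± 0.18, adjusted p = 0.00522). Sdc1 rose too (0.50), while Derl3 fell (-0.85). The summed level of the T and natural killer cell genes was 9.55, 11.5 and 13.6 FPKM in BDL and 20.8, 15.6 and 75.2 in BDL+LIG, so that BDL+LIG 3 stood apart.

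In bile acid synthesis, the enzymes that set the kind of bile acid changed in opposite directions. Cyp8b1, the 12α-hydroxylase needed for cholic acid, stood at 22.5, 23 and 25.3 FPKM in BDL, at 42.7, 39.2 and 37.5 in BDL+LIG and at 130.1, 104 and 144 in sham. The treated libraries lay above the BDL libraries and below the sham libraries (0.73 ± 0.09, adjusted p = 0.0029, limma; length-adjusted 0.66). Cyp2c70, which makes the muricholic acids of mice, fell (-0.59 ± 0.12, adjusted p = 0.0084; length-adjusted -0.62). Cyp7a1, which starts the classical pathway and limits its rate, stood at 22.1, 26.6 and 30.2 FPKM in BDL and 24.1, 48.9 and 37.4 in BDL+LIG, and did not pass (0.42 ± 0.23, adjusted p = 0.189). Over the list, 3 of 16 rose (18.8% against 28.4% of all genes) and 1 fell (6.25% against 6.12%). Length-adjusted, 1 rose (6.25% against 7.67%) and 1 fell (6.25% against 8.99%). Cyp39a1 rose (0.73) but not without BDL 2 (adjusted p = 0.0659), and Hsd3b7 rose (0.27) in 1 of 6 leave-one-out fits.

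Among 21 tested transporters of bile acids and lipids, 8 rose (38.1% against 28.4% of all genes) and 1 fell (4.76% against 6.12%) in limma, with a median of 0.19, near the 0.18 of all genes. Length-adjusted, 1 rose (4.76% against 7.67%) and 3 fell (14.3% against 8.99%). Abcc2, which exports conjugated bilirubin into bile, stood at 25.3, 26.2 and 27.2 FPKM in BDL and 53, 57.8 and 48.1 in BDL+LIG (0.98 ± 0.09, adjusted p = 0.00209; length-adjusted 0.66). Its sham libraries spread widely, at 65.4, 20.6 and 14. Slc51b, 1 chain of the OSTα-OSTβ exporter that returns bile acids to blood, fell from 28, 27.9 and 32.7 to 9.83, 18.2 and 11 FPKM (-1.17 ± 0.20, adjusted p = 0.00617; length-adjusted -0.85). Abcc3 (0.60) and Abcc6 (0.62) rose on the deposited scale alone (length-adjusted p = 0.156 and 0.0683). Slc10a1, the uptake carrier NTCP, did not pass (0.10 ± 0.09, adjusted p = 0.387). Abcb11, the bile salt export pump, stood at 70.3, 71.7 and 69.7 FPKM in BDL and 69.3, 72.9 and 69.3 in BDL+LIG (adjusted p = 0.989), but passed as lower once length was adjusted (-0.33, adjusted p = 0.0254). Abcc4 was too low to test, at 0.334, 0.449 and 0.48 FPKM in BDL and 0.843, 0.689 and 0.771 in BDL+LIG.

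Many male-biased liver transcripts, which pulses of growth hormone drive through STAT5B, were lower. Of 22 tested members 10 fell (45.5% against 6.12% of all genes), 1 rose and 11 did not pass (limma, median -0.56). On the length-adjusted scale 10 fell (45.5% against 8.99%; median -0.67). With 1 library left out, 8 to 14 fell on the deposited scale and 2 to 12 length-adjusted. Mup3, a major urinary protein that carries pheromones, stood at 198, 271 and 309 FPKM in BDL, at 40.7, 93.2 and 49 in BDL+LIG and at 7781, 9771 and 10839 in sham (-2.14 ± 0.29, adjusted p = 0.00372). Mup17 stood at 5.25, 13.2 and 18 FPKM in BDL and 0.729, 1.11 and 1.59 in BDL+LIG. Cyp4a12a, a fatty acid hydroxylase, stood at 14.5, 12.6 and 12.1 FPKM in BDL, 4.63, 5.08 and 3.76 in BDL+LIG and 188, 104 and 237 in sham (-1.36 ± 0.12, adjusted p = 0.00209). No treated library reached the BDL range in any of the 3, but non-overlap was a condition of the rule that chose them. Fragments of the Mup genes are hard to assign among near-identical copies. The Y-linked genes Ddx3y, Eif2s3y and Kdm5d were present in all 9 libraries while Xist was at most 0.0195 FPKM.

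Of 10 tested female-biased genes, 5 rose (50% against 28.4% of all genes) and 0 fell (limma, median 0.91). Length-adjusted, 4 rose (40% against 7.67%) and 1 fell (10% against 8.99%). The number that rose was 4 to 6 with 1 library left out, and 1 to 4 length-adjusted. The rises include Acot3 and Acot4 (1.22), Abcd2 (1.05), a peroxisomal transporter of very long chain fatty acids, and Trim24 (0.67), a nuclear coregulator. The 2 thioesterases also belong to the PPAR-alpha targets below. Within the growth hormone and IGF axis, 4 of 16 rose (25% against 28.4% of all genes) and 1 fell (6.25% against 6.12%). Stat5b rose (0.56 ± 0.10, adjusted p = 0.00686) but not length-adjusted (adjusted p = 0.137), Igfbp3 rose on both scales (0.82 and 0.56), and Igf1 fell (-0.26 ± 0.08, adjusted p = 0.0393). The fall of Igf1 was not called in 4 of 6 leave-one-out fits on the deposited scale, and it was larger length-adjusted (-0.61, adjusted p = 0.00607).

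Some fat oxidation genes rose. Of 48 tested genes of fatty acid oxidation and targets of PPAR-alpha, 21 rose (43.8% against 28.4% of all genes), 0 fell and 27 did not pass (limma, median 0.30). Length-adjusted, 10 rose (20.8% against 7.67%) and 1 fell (2.08% against 8.99%). Ppara, the receptor that drives them, stood at 6.55, 7.09 and 7.26 FPKM in BDL, at 12.5, 13.6 and 12 in BDL+LIG and at 22.9, 14.9 and 10.4 in sham (0.78 ± 0.09, adjusted p = 0.00269; length-adjusted 0.42). Cpt1a, the gate for fatty acids into mitochondria, stood at 49.4, 50.04 and 49.5 FPKM in BDL and 89.2, 85.5 and 80.1 in BDL+LIG (0.76 ± 0.08, adjusted p = 0.00229; length-adjusted 0.46). Neither overlapped between the groups. Chosen after their values were seen, Acot1 (1.29), Acot2 (0.97), Ehhadh (0.91), Angptl4 (0.86) and Acsl1 (0.79) rose on both scales. Without BDL 2, the fewest members rose, and the counts with 1 library left out were 13 to 23 and, length-adjusted, 2 to 12.

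Of 33 tested lipogenic genes 13 rose (39.4% against 28.4% of all genes), 1 fell and 19 did not pass (limma, median 0.41). Length-adjusted, 6 rose (18.2% against 7.67%) and 2 fell (6.06% against 8.99%). Acly, which makes cytosolic acetyl-CoA (0.80), Acss2 (0.58), Scd2 (0.86) and Lpin2 (1.07), a phosphatidate phosphatase, rose on both scales, as did Lpin1 (1.20), chosen after its values were seen. Agpat2, an acyltransferase of triglyceride synthesis chosen likewise, was the member that fell (-0.37 ± 0.09, adjusted p = 0.0188), in 2 of 6 leave-one-out fits. Among 31 genes of cholesterol synthesis 7 rose (22.6% against 28.4%) and 0 fell. Length-adjusted, 4 rose (12.9% against 7.67%) and 2 fell (6.45% against 8.99%). Scap (0.98), the escort of SREBP, and Mylip (1.10), which degrades the LDL receptor, rose on both scales.

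Glucose metabolism genes rose in 17 of 39 cases (43.6% against 28.4% of all genes) and fell in 0 (limma, median 0.34). Length-adjusted, 5 rose (12.8% against 7.67%) and 2 fell (5.13% against 8.99%). Beside Txnip they were led by Gbe1 (0.86), the glycogen branching enzyme, Foxo1 (0.73), a factor of fasting that insulin restrains, and Irs2 (0.93), a substrate of the insulin receptor. Irs2 did not pass length-adjusted (adjusted p = 0.0684). Pdk4, the kinase that shuts pyruvate dehydrogenase, chosen after its values were seen, rose (1.13 ± 0.27, adjusted p = 0.0166), but not without BDL 2 (adjusted p = 0.0575), without BDL 3 (adjusted p = 0.0547) or length-adjusted (adjusted p = 0.051). Fewest members rose without BDL 2, with 6 to 17 over the leave-one-out fits.

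Drug metabolism shifted in single genes. Of 43 cytochrome P450 and related genes 6 rose (14% against 28.4% of all genes) and 2 fell (4.65% against 6.12%; limma, median -0.01). Length-adjusted, 1 rose (2.33% against 7.67%) and 4 fell (9.3% against 8.99%). Cyp2c29, an epoxygenase, stood at 87.9, 76.5 and 63 FPKM in BDL, at 141, 185 and 120.0 in BDL+LIG and at 363, 356 and 304 in sham (0.95 ± 0.18, adjusted p = 0.00709; length-adjusted 0.90). The median of the list changed sign under some scalings. Of 51 phase II genes 6 rose (11.8% against 28.4%) and 6 fell (11.8% against 6.12%). Length-adjusted, 4 rose (7.84% against 7.67%) and 9 fell (17.6% against 8.99%). All but 1 of the 6 rises were of the Ugt1a cluster, with Ugt1a5 at 1.24 and Ugt1a6a at 0.95. Its members share their last exons, so fragments there cannot be assigned to 1 of them. Nnmt, nicotinamide N-methyltransferase, fell (-0.77 ± 0.13, adjusted p = 0.00583), and so did Gstk1 (-0.56), the latter not length-adjusted (adjusted p = 0.0543).

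The targets of the antioxidant factor NRF2, 32 of which were tested, rose in 6 cases (18.8% against 28.4% of all genes). They fell in 1 (3.12% against 6.12%; median 0.23). Length-adjusted, 0 rose (7.67% of all genes did) and 1 fell (3.12% against 8.99%). Hmox1 (0.21 ± 0.14, adjusted p = 0.285) and Nqo1 (0.09 ± 0.12, adjusted p = 0.584) did not pass. The sign of Nqo1 changed length-adjusted (-0.12) and with 2 scalings, and that of Hmox1 with median-of-ratios scaling. Txn1, thioredoxin, the partner that Txnip binds, fell (-0.60 ± 0.13, adjusted p = 0.0114; length-adjusted -0.47), though not without BDL 2 (adjusted p = 0.0508). Cyp1a1, the classic target of the aryl hydrocarbon receptor, was too low to test, at 0.0176, 0.0794 and 0.113 FPKM in BDL and 0.188, 0.337 and 0.235 in BDL+LIG.

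Genes on a list of secreted hepatocyte proteins, which was not limited to proteins outside the acute phase, rose in 8 of 60 cases (13.3% against 28.4% of all genes). They fell in 7 (11.7% against 6.12%; limma, median -0.04). Length-adjusted, 4 rose (6.9% against 7.67%) and 5 fell (8.62% against 8.99%). Apom rose from 87.7, 85.9 and 79.5 to 264, 301 and 205 FPKM (1.57 ± 0.14, adjusted p = 0.00209; length-adjusted 1.79), above all sham libraries (127, 115 and 75.7). Masp1, a protease of the lectin pathway of complement, rose (1.33). Alb itself rose (0.55 ± 0.17, adjusted p = 0.0416), but it passed in 1 of 6 leave-one-out fits and could not be length-adjusted. Of 50 genes of the urea cycle and amino acid breakdown 6 rose (12% against 28.4%) and 4 fell (8% against 6.12%). Length-adjusted, 2 rose (4% against 7.67%) and 7 fell (14% against 8.99%). Bhmt (-0.94 ± 0.20, adjusted p = 0.00998), betaine-homocysteine methyltransferase, fell and Gnmt (0.78 ± 0.16, adjusted p = 0.00927), which consumes S-adenosylmethionine, rose. Both were chosen after their values were seen.

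Genes of large complexes fell more often than all genes, and less often length-adjusted. Of 79 cytosolic ribosomal protein genes, which are short, 34 fell (43% against 6.12% of all genes) and 0 rose (limma, median -0.25). Length-adjusted, 11 fell (13.9% against 8.99%) and 3 rose (3.8% against 7.67%; median -0.04). Of 76 nuclear genes of oxidative phosphorylation 25 fell (32.9% against 6.12%) and 5 rose (6.58% against 28.4%; median -0.20). Length-adjusted, 9 fell (11.8% against 8.99%) and 3 rose (3.95% against 7.67%; median -0.02). A list of 42 very long genes had 35 rises (83.3% against 28.4% of all genes) and 0 falls (median 0.50). It includes the chromatin genes Arid1a (0.89) and Ankrd11 (0.87) and the scaffold gene Flna (1.02). Length-adjusted, it had 9 rises (21.4% against 7.67%; median 0.14). This list was chosen for length, so its smaller median after length adjustment is built in. For lists of short genes a move toward 0 is in part built in as well. Whether length accounts for the falls of the ribosomal and oxidative phosphorylation genes was not tested. Summed over all 49 members it held 204, 217 and 232 FPKM in BDL and 325, 320 and 299 in BDL+LIG. In sham the sums were 245, 131 and 133 FPKM, so untreated libraries differed widely too. Rpl21 fell on both scales, from 48.9, 53 and 56.3 to 29, 31.2 and 28.9 FPKM (-0.81 ± 0.09, adjusted p = 0.0024; length-adjusted -0.86), the largest fall among the 79.

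Of the 13 mitochondrially encoded genes 4 fell (30.8% against 6.12% of all genes) and 0 rose (limma, median -0.51). They took 9.76, 9.2 and 8.3% of the summed FPKM in BDL and 5.86, 8.58 and 7.2% in BDL+LIG, a difference of -1.88 percentage points (exact permutation test, two-sided, p = 0.2, where 0.1 is the smallest possible). BDL+LIG 2 overlapped with BDL. Set against the summed FPKM of nuclear genes without the 20 most abundant, they came to 15.34, 14.33 and 12.74% in the BDL libraries against 8.52, 12.56 and 10.59% in the treated ones, without overlap (-3.58 percentage points, exact permutation test, two-sided, p = 0.1, the smallest possible). The fall of ATP6 stood out, from 73.2, 44.4 and 94.9 to 22.8, 28.4 and 15 FPKM (-1.62 ± 0.30, adjusted p = 0.00709), while that of ND2 (adjusted p = 0.044) passed in 1 of 6 leave-one-out fits. ND5 (adjusted p = 0.0114) changed sign with quantile normalization, to 0.129.

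Proteasome subunits fell in 8 of 31 cases (25.8% against 6.12% of all genes) and rose in 1 (3.23% against 28.4%; limma, median -0.22). On the length-adjusted scale 6 fell (19.4% against 8.99%), among them Psmc2 (-0.48). Lysosome and autophagy genes rose in 18 of 42 cases (42.9% against 28.4% of all genes) and fell in 0, with a median of 0.23 against 0.18. Length-adjusted, 6 rose (14.3% against 7.67%). With median-of-ratios scaling 4 rose (9.52% against 14.6%) and 3 fell (7.14% against 16.1%). They include Ulk1 (0.92), the kinase that starts autophagy, and Lipa (0.63), the acid lipase. Counts with 1 library left out were 1 to 16 falls for the proteasome, fewest without BDL 2, and 8 to 21 rises for the lysosome, fewest without BDL 2.

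**Figure D5:**
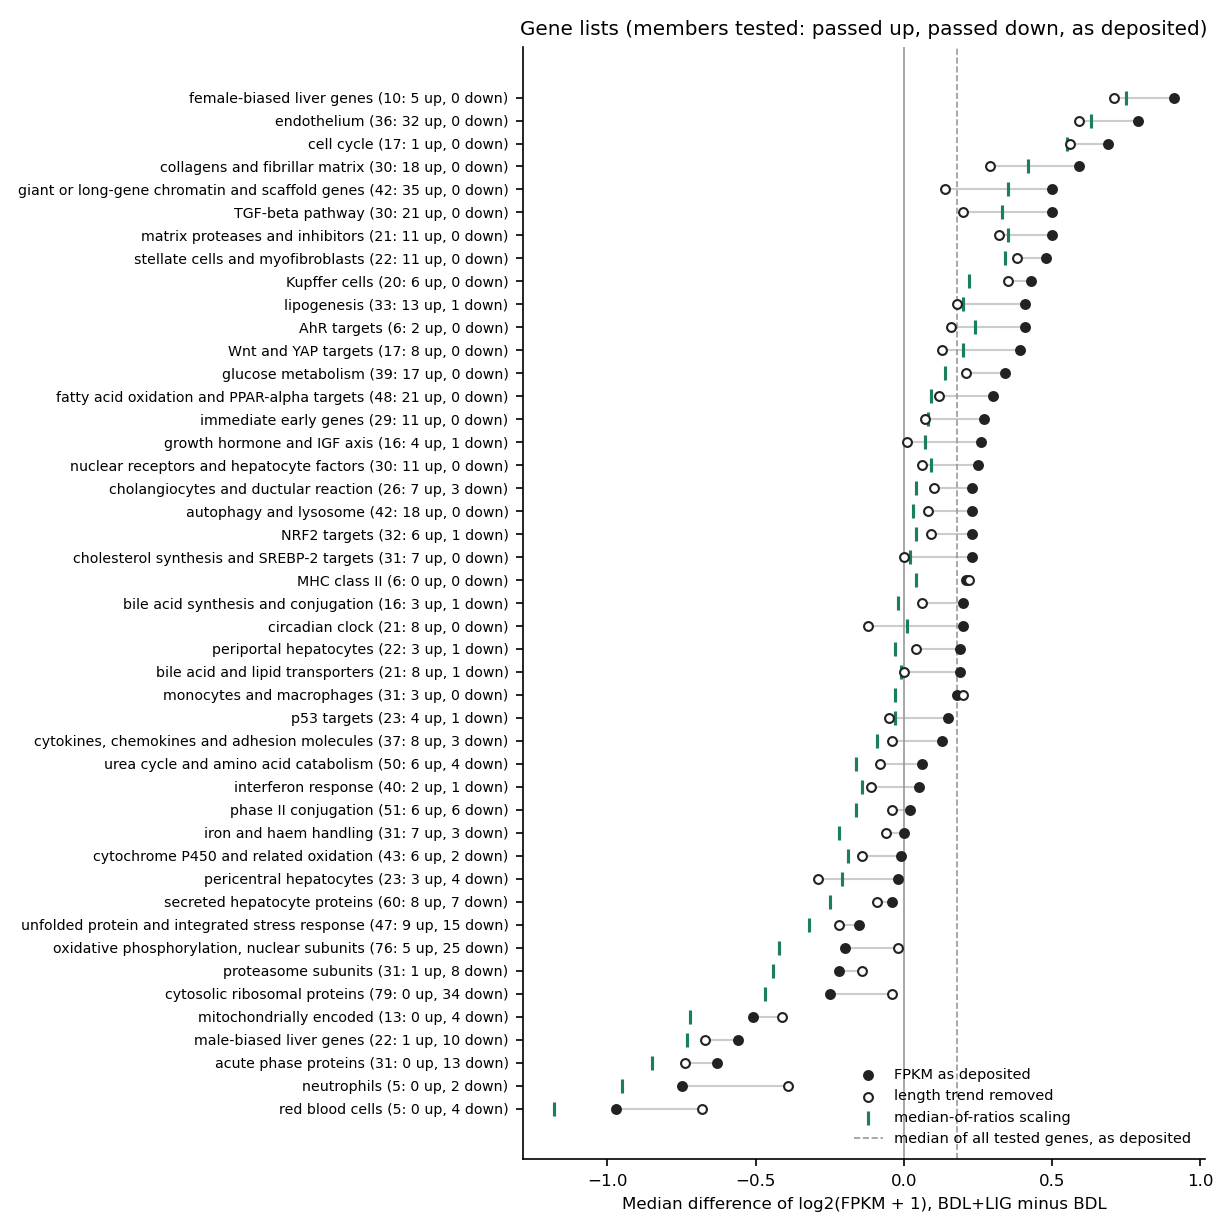
Median difference of log2(FPKM + 1), BDL+LIG minus BDL, for each gene list with at least 5 tested members, on the deposited scale (filled), after length adjustment (open) and after median-of-ratios scaling (green bar), with the number tested and the numbers that passed in each direction beside the name. The dashed line marks 0.18, the median of all tested genes. Female-biased genes (0.91) and endothelium (0.79) lie highest, and acute phase (-0.63), neutrophil (-0.75) and red blood cell genes (-0.97) lowest. Ribosomal and oxidative phosphorylation genes move to near 0 once length is adjusted, a move that is in part built in for short genes.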

How the data were processed

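Liver RNA had been isolated with TRIzol and made into libraries with a VAHTS Universal V6 kit, per the labels' protocols. Among tools, fastp, HISAT2 2.1.0 and DESeq2 appear in the submitters' processing notes, with GRCm39 as the build. The annotation and the counting program were not stated in the sources used here. The authors deposited FPKM for 21470 genes and 9 libraries in 1 table, and groups were taken from sample titles. Whole fragments, and with them depth and relative gene length, were recovered from FPKM steps for 19446 of 19449 genes (99.98%, tolerance 0.02 fragments). Alb, Apoe and COX1 stayed unresolved. In simulated data 97.98% of 18887 genes came out exact.

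The test was limma 3.58.1 (lmFit, eBayes with trend, R 4.3.3) on log2(FPKM + 1) of the 6 libraries, with Benjamini-Hochberg adjustment and a threshold of 0.05. Genes needed 1 FPKM or more in 3 or more libraries. Sham libraries were left out because of their wider spread. The length trend was removed from each library by loess with a span of 0.4. The replicate libraries of each group differed by more than sampling noise, with median chi-square values per gene of 2.57 to 10.46. Among the alternatives, length removal with each library left out was added after seeing the data.

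Each of 51 gene lists is described by counts and a median. The rule for named genes took the 12 largest rises and falls among genes that passed, did not overlap and reached 5 FPKM in a group, without clones and predicted genes. It further took 5 genes per direction with the smallest p after length removal, up to 4 members per list with the smallest p, and a fixed set that includes Acta2, Col1a1, Krt7, Cyp7a1 and Tgfb1. The members and lists were chosen with earlier results of these data known. RefSeq promoters (GRCm38.p6) were matched by gene symbol. A few genes that the rule would name are not reported here.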

Additional observations from a re-analysis of the deposited data

How the results depend on the processing

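The number of genes called is the weakest point of the comparison. The cause of the length slope was not tested, 3 libraries a group allow no exact p below 0.1 for a single value, and many calls were lost when a BDL library was left out. The median SD of a gene was 0.097 in BDL and 0.146 in BDL+LIG, and its part in the calls was not tested. Against 3434 genes called, the number was 1896 among genes with a mean of at least 5 FPKM (1367 higher; fewer genes tested), 1243 with all 9 libraries in the fit (1053 higher, 190 lower), 1657 after length removal (763 higher), 1493 after removal of length and GC trends (707 higher) and 134 at a difference of at least 1. Without a filter 359 were lower. Higher and lower genes numbered 1449 and 1607 with median-of-ratios scaling, 4481 and 333 as TPM, and 1197 and 1213 with quantile normalization, so that the share of higher genes fell from 82.3% to 47.4% with median-of-ratios scaling and to 49.7% with quantile normalization. With each library left out in turn, 1513 to 3499 genes were called, 1302 to 2959 higher and 211 to 871 lower. After length removal the calls were 536 without BDL 1 (249 higher, 287 lower), 131 without BDL 2 (67 and 64), 461 without BDL 3 (205 and 256), 1531 without BDL+LIG 1 (711 higher), 1727 without BDL+LIG 2 (788 and 939) and 1124 without BDL+LIG 3 (555 higher).

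The span between the longest and shortest deciles was 0.57. It was 0.73 with a pseudocount of 0.1, 0.75 with voom, 0.40 with quantile normalization, 0.51 to 0.63 with 1 library left out, 0.01 after length removal, 0.03 with GC added and 0 to 0.02 after length removal with 1 library left out. The spans after length removal are near 0 because the trend itself was subtracted.

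Same-numbered BDL and BDL+LIG libraries deviated from their group means with correlations of 0.0927, 0.00862 and 0.114 across genes. Between libraries of unlike number the correlations ran from -0.118 to 0.00985. With 3 libraries a group, these values cannot decide whether replicate numbers pair the libraries. With the replicate number as a block 3417 genes were called, 2790 higher and 627 lower. The block with length removal gave 1290 genes (631 higher) and a span of 0.01.

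Of 237 named and tested genes, 212 were called. Of these calls, 60 were lost with all 9 libraries, 56 after length removal, 22 with median-of-ratios scaling, 41 without a filter and 47 without BDL 2. After length removal with a BDL library left out, most were lost. Only 94 of the 212 calls were kept without BDL 1, 38 without BDL 2 and 79 without BDL 3. Pseudocounts of 0.1 and 0.5 changed 0. Genes that changed sign had not been called, except ND5 (0.129 with quantile normalization) and 1 gene after length removal without BDL 3. Rescaled to TPM, Acta2 was 0.0697, Timp1 0.0408, Krt7 0.0997 and Abcb11 0.148. With library totals set equal outside the 20 most abundant genes, Acta2 was 0.00187, Krt7 0.0236 and Abcb11 0.0696, and Abcb11 was 0.0128 with voom. With median-of-ratios scaling, Krt19 was -0.0715, Slc10a1 -0.116, Ccl2 -0.0854, Hmox1 -0.0105 and Nqo1 -0.100. With quantile normalization, Krt19 was -0.00202, Nqo1 -0.0967 and Fgb 0.123. After length removal, with or without the block, Timp1 was 0.0828, Slc10a1 -0.00414 and Nqo1 -0.124, and with GC added Timp1 was 0.0418 and Nqo1 -0.101. With 1 library left out, Acta2 ranged from -0.315 to 0.166, Timp1 from -0.359 to 0.227, Krt7 from -0.229 to 0.0821, Krt19 from -0.0974 to 0.361, Abcb11 from -0.0261 to 0.0106 and Ccl2 from -0.0777 to 0.237.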

Other observations

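Single genes of several further groups passed. Of 21 tested clock genes, 8 rose (38.1% against 28.4% of all genes) and 0 fell in limma, with a median of 0.20, near the 0.18 of all genes. Length-adjusted, 4 rose (19% against 7.67%) and 1 fell (4.76% against 8.99%). Nr1d1, the repressor REV-ERBα, stood at 2.29, 3.13 and 3.07 FPKM in BDL and 5.84, 8.65 and 6.03 in BDL+LIG (1.02 ± 0.16, adjusted p = 0.00479), and Cry2 (0.95), Csnk1d (0.70) and Tef (0.67) rose also length-adjusted. The sources used here do not say at which hour livers were taken, and the part of time of day in these differences was not tested. Among 23 p53 targets 4 rose (17.4% against 28.4%) and 1 fell (4.35% against 6.12%). Sesn1 (0.94) and Btg2 (0.69) rose and Fas (-0.52), the death receptor, fell, all 3 also length-adjusted. Immediate early genes, which respond within minutes to handling, rose in 11 of 29 cases (37.9% against 28.4% of all genes), led by Klf10 (0.63) and Egr1 (0.70). On the length-adjusted scale 2 rose (6.9% against 7.67%). Egr1 did not pass length-adjusted (adjusted p = 0.0541).

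Interferon response genes rose in 2 of 40 cases (5% against 28.4% of all genes) and fell in 1 (2.5% against 6.12%; median 0.05). Length-adjusted, 1 rose (2.5% against 7.67%) and 6 fell (15% against 8.99%). Isg15, a ubiquitin-like protein, fell (-0.82 ± 0.17, adjusted p = 0.0106), and Trim25, the ligase that acts with RIG-I, rose (0.71 ± 0.08, adjusted p = 0.00258). Cell cycle genes had a median of 0.69, yet 1 of 17 tested rose (Ccnd2, 0.57, adjusted p = 0.0504 without BDL 2), and 0 to 11 did with 1 library left out. BDL+LIG 2 stood apart, since the 40 cell cycle genes summed to 75.5, 83.8 and 87.3 FPKM in BDL and 86.5, 323 and 123 in BDL+LIG, and without that library the median was 0.28. None of the 6 MHC class II genes passed. Among 30 nuclear receptors and hepatocyte factors 11 rose (36.7% against 28.4% of all genes) and 0 fell, and Rxra (0.62), Rxrb (0.56), Ppara and Onecut1 rose also length-adjusted. Of 31 genes of iron and haem handling 7 rose (22.6% against 28.4% of all genes) and 3 fell (9.68% against 6.12%). Length-adjusted, 4 rose (12.9% against 7.67%) and 5 fell (16.1% against 8.99%). Tmprss6, the protease that lowers hepcidin, rose (0.81 ± 0.09, adjusted p = 0.0025), and Fech, the last enzyme of haem synthesis, rose as well (0.51).

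No tested marker of red blood cells or of neighbouring tissues rose. The globin genes Hba-a1 (-0.95), Hba-a2 (-0.97), Hbb-bs (-1.01) and Hbb-bt (-1.01) fell in limma (adjusted p = 0.0221, 0.0275, 0.0239 and 0.047), but none of them passed length-adjusted or when any 1 BDL library was left out. Summed over 16 red cell genes the BDL libraries held 408, 455 and 498 FPKM and the BDL+LIG libraries 176, 374 and 189. For 10 fat cell genes the BDL libraries summed to 78, 75 and 74.9 FPKM and the BDL+LIG libraries to 53.8, 225 and 74, so that BDL+LIG 2 stood apart. The sum of 12 pancreatic enzyme genes was 8.68, 8.73 and 10.2 and 8.78, 11.2 and 9.79 FPKM, and that of 11 mesothelial genes 12, 19.4 and 21.1 and 21.7, 23.6 and 13. The 4, 2 and 3 genes of these last 3 lists that could be tested did not pass in limma.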
